A study of Mus musculus with 21 samples.

Results

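The comparison set cells descended from transplanted monocytes (MLC, the code in the library names) against transplanted microglia (MG) in the mouse brain after a seizure. It used the 10 libraries of kainic acid-treated brain that hold donor cells, 6 MLC and 4 MG, of 21 libraries in the series, and every gene that passed a filter on low counts, 12149 of 57180. The MLC libraries are labelled monocyte-derived microglia and the MG libraries transplanted microglia. Both carry the genotype Osb-GFP, both were treated with kainic acid, a glutamate receptor agonist that induces seizures, and sampled after 5 days, and all 10 are labelled batch 1. RNA came from sorted brain cells. For both cell types, 3 libraries each were also made after saline, all labelled batch 2. The series title places the replacement in newborn mice, with seizures in adulthood. Host strain, age at sampling and any pooling of animals are not given in the sources used here.

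Microglia, the macrophages resident in the brain, arise from yolk sac progenitors, whereas monocytes arise from blood-forming stem cells. Monocyte descendants that settle in an emptied brain niche take on a microglia-like shape and express many microglial genes, but they are known to keep marks of their origin. The transcription factor Sall1 and the ADP receptor P2ry12 are the usual marks of true microglia, and Ms4a7, Clec12a and Apoe those of marrow-derived cells in the brain.

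Library totals ran from 6571262 to 37494192 counts in MLC and from 7640334 to 47413071 in MG, with 13074 to 16416 and 14889 to 15399 genes detected. Thinned to the smallest total, MG replicates 1 to 4 had 14484, 14856, 12322 and 12992 genes detected, and MLC had 12810 to 15479. MLC replicate 5 and MG replicates 3 and 4, the lowest of the 10, are called libraries of low complexity below. Log2 CPM (counts scaled to one common library total, with TMM factors) correlated between libraries with a median Pearson's r of 0.767 within MLC, 0.733 within MG and 0.663 between them, across genes, which are not independent replicates. MLC replicates 3 and 6 have 11b added to the name codes of MLC replicates 2 and 4. Whether these pairs share an animal is not given, so the spread between the 6 MLC libraries may be partly technical. The labels call all of them biological replicates. Leaving out MLC replicates 3 and 6 gave 292 calls in place of 502.

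In all, 502 genes passed an adjusted p of 0.05 in edgeR's quasi-likelihood test, 4.13% of those tested. Of these, 291 were higher in MLC (2.4% of tested genes) and 211 were lower (1.74%). For 463 of the 502, no MLC library overlapped any MG library, against 933 genes without overlap among all tested, or 7.68%. The median log2 fold change over all tested genes was 0.01. Of the 502 calls, 271 held in every fit that left out 1 of the 10 libraries, 150 higher and 121 lower. Without MG replicate 2 the number called higher fell to 191. Libraries with number 1 in their names alone gave 286 calls, 178 higher and 108 lower, and those with number 2 alone gave 92, 66 higher and 26 lower.

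**Figure D1:**
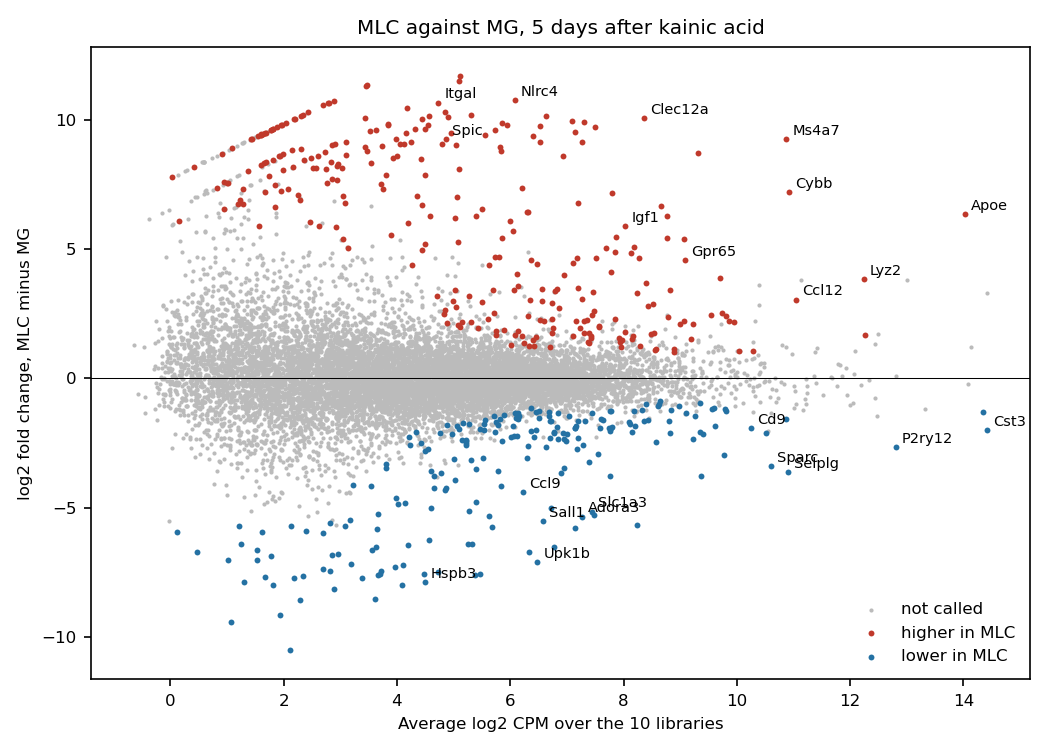
Each point is a tested gene, with its average log2 CPM over the 10 libraries on the x axis and its log2 fold change, MLC minus MG, on the y axis; red points were called higher in MLC and blue points lower. The 291 higher genes reach larger fitted changes than the 211 lower ones, and the oblique rows of points at the upper left are genes with no or almost no counts in MG, whose fitted value depends on the prior count.

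Of the transcription factors that set microglial identity, 17 of 18 listed genes were tested and 2 were called, both lower in MLC. Sall1, a zinc-finger repressor that is a marker of microglia among brain macrophages, had 1.73 to 11.1 CPM in MLC (median 4.47), against 196, 244, 304 and 183 CPM in MG. Its log2 fold change was -5.52 (SE 0.48, edgeR adjusted p = 7.58e-06). Its paralog Sall3 had 0.144 to 0.514 CPM in MLC (median 0.305), against 92.2, 70.9, 2.67 and 94.3 CPM in MG, so that 1 MG library stood far below the others yet above every MLC library (log2 fold change of -7.50, SE 0.87, adjusted p = 0.000117). The other 15 tested members of that list were not called. Mef2c had 756 to 1155 CPM in MLC (median 909) and 1151, 1061, 1130 and 1121 CPM in MG (log2 fold change of -0.29, SE 0.23, adjusted p = 0.664). Spi1, which encodes PU.1, had 10.5 to 28.1 CPM in MLC (median 19.5) and 18.2, 17.2, 12.7 and 6.06 CPM in MG (log2 fold change of 0.52, SE 0.58, adjusted p = 0.783). Irf8 overlapped between the groups as well (adjusted p = 0.445).

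Among 25 factors of the myeloid and monocyte lineage, 18 were tested, 3 were higher in MLC (Spic, Ahr and Runx3) and none was lower. Spic, an Ets factor known from red pulp macrophages of the spleen, had 37.1 to 66.9 CPM in MLC (median 44.0), against 0, 0, 0.122 and 0.090 CPM in MG (log2 fold change of 9.23, SE 0.82, adjusted p = 7.74e-06). Ahr, the aryl hydrocarbon receptor, had 5.10 to 74.2 CPM in MLC (median 23.7), while MG had 0, 0, 0 and 0.15 CPM (log2 fold change of 9.13, SE 1.36, adjusted p = 0.00104). Every MLC library expressed both genes and the MG libraries were at or near 0, with no Ahr count in MG outside replicate 4. Without that library the log2 fold change of Ahr was 11.95, a fitted value that depends on the prior count because MG was then at 0.

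Homeostatic microglial genes had more lower members than any other list. Of 30 listed, 29 were tested, 20 were lower in MLC and none was higher, and all 29 had a negative log2 fold change (median -2.04). Of the 20 calls, 17 held in every fit that left out a library. Their summed level was 33777 to 45446 CPM in MLC and 102455 to 149613 CPM in MG. Abundant genes such as Cst3 carry much of these sums. P2ry12, which senses ADP released by injured cells and steers microglial processes, had 1796 to 2801 CPM in MLC (median 2233), against 11530, 12240, 16950 and 17210 CPM in MG. This is a 6.40-fold higher level in MG (log2 fold change of -2.68, SE 0.25, adjusted p = 1.1e-05). Cst3, a secreted cysteine protease inhibitor, had 7509 to 12800 CPM in MLC (median 9440), against 31300, 31760, 48510 and 47840 CPM in MG (log2 fold change of -2.0, SE 0.27, adjusted p = 0.000409). Neither gene overlapped between the groups.

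Single homeostatic genes ranged widely in level and in change. Upk1b, a uroplakin of the tetraspanin family, had 0.851 to 3.23 CPM in MLC (median 1.36), against 205, 172, 281 and 220 CPM in MG (log2 fold change of -7.12, SE 0.43, adjusted p = 5.43e-07). Slc2a5, the fructose transporter GLUT5, had 2.02 to 32.6 CPM in MLC (median 15.0), against 617, 1032, 1018 and 263 CPM in MG (log2 fold change of -5.66, SE 0.64, adjusted p = 9.78e-05). Ecscr, a cell surface protein first described in endothelium, and Adgrg1, an adhesion receptor, had log2 fold changes of -5.28 and -5.03 (adjusted p = 1.87e-06 and 5.87e-05). Sparc, a matrix-binding glycoprotein, had 214 to 550 CPM in MLC (median 282) and 3464, 3354, 3521 and 3201 CPM in MG, the MG libraries lying close together (log2 fold change of -3.38, SE 0.30, adjusted p = 8.28e-06). Siglech, a sialic acid-binding lectin, had a smaller log2 fold change (-2.08, SE 0.27, adjusted p = 0.000326).

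Csf1r, Cx3cr1, Tmem119 and Trem2, which are often used to identify or target microglia, were lower in MLC by their fitted values but were not called. Csf1r, the receptor for colony-stimulating factor 1, had 407 to 2099 CPM in MLC (median 814) and 2228, 4103, 2315 and 1083 CPM in MG (log2 fold change of -1.34, SE 0.46, adjusted p = 0.146). Cx3cr1, the fractalkine receptor, had 919 to 3124 CPM in MLC (median 1146) and 3840, 4719, 3702 and 1652 CPM in MG (-1.21, SE 0.39, adjusted p = 0.118). Tmem119 had 187 to 1856 CPM in MLC (median 467) and 2319, 5135, 3105 and 490 CPM in MG (-2.04, SE 0.66, adjusted p = 0.12). In each of these genes the highest MLC library lay above the lowest MG library. Trem2, a lipid-sensing receptor, did not overlap, with 616 to 1455 CPM in MLC and 1999, 2088, 2840 and 2262 CPM in MG, yet missed the threshold (adjusted p = 0.0852). Without MLC replicate 2, Csf1r, Cx3cr1 and Tmem119 were called lower (adjusted p = 0.0344, 0.019 and 0.0271), and without MLC replicate 5 so was Trem2 (adjusted p = 0.0348).

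**Figure D2:**
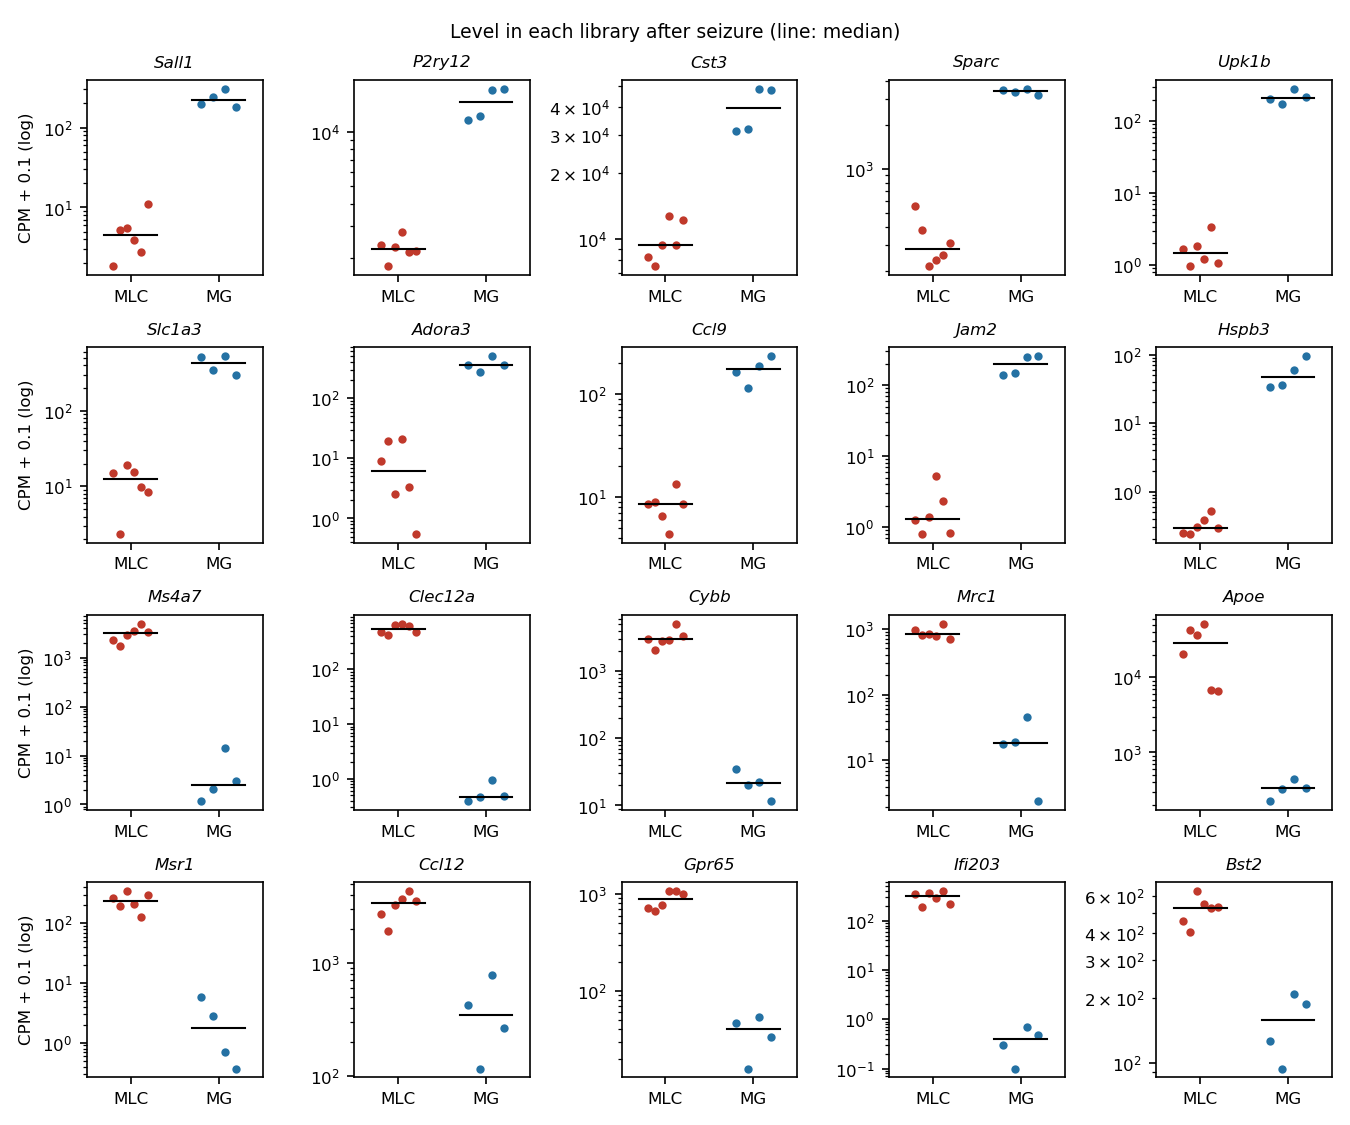
Each point is a library, with CPM plus 0.1 on a log axis, for 20 genes; bars mark the median, and MLC stands left of MG. The first 10 genes were called lower in MLC and the last 10 higher, with no MLC library overlapping an MG library in any of them.

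Genes known from marrow-derived macrophages in the brain were higher in MLC. Of 30 listed, 27 were tested, 16 were higher in MLC and none was lower (median log2 fold change 3.41), and 14 of the 16 calls held in every fit that left out a library. Clec12a, an inhibitory C-type lectin of myeloid cells that binds uric acid crystals, had 420 to 678 CPM in MLC (median 550), against 0.291, 0.362, 0.832 and 0.390 CPM in MG. Its log2 fold change of 10.07 (SE 0.47) had the smallest adjusted p of all genes, 5.91e-08. Ms4a7, a four-span membrane protein of macrophages, had 1773 to 4967 CPM in MLC (median 3140), against 1.07, 1.93, 14.2 and 2.85 CPM in MG (log2 fold change of 9.24, SE 0.87, adjusted p = 1.36e-05). Other members of the family were also higher, with log2 fold changes of 10.15 for Ms4a4a (SE 0.64, adjusted p = 6.86e-07), 9.14 for Ms4a14 (SE 0.55, adjusted p = 5.43e-07), 3.87 for Ms4a6c (SE 0.40, adjusted p = 3.86e-05) and 2.16 for Ms4a6b (SE 0.32, adjusted p = 0.000954). Members of this family are similar in sequence, so reads may be divided between them. Without MG replicate 3 the log2 fold change of Ms4a7 was 10.60.

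Cybb, which encodes the electron-transferring subunit of the phagocyte oxidase, had 2098 to 5148 CPM in MLC (median 2991), against 34.3, 20.4, 22.6 and 11.5 CPM in MG (log2 fold change of 7.18, SE 0.47, adjusted p = 7.3e-07). It was the only one of the 9 oxidase genes to be called. Lyz2, lysozyme, had 4227 to 11644 CPM in MLC (median 7305) and 617, 483, 604 and 470 CPM in MG (3.82, SE 0.34, adjusted p = 8.51e-06). Tlr8, an endosomal receptor for RNA, had 64.7 to 208 CPM in MLC (median 147) and 0.194, 0, 0.294 and 0.21 CPM in MG (9.38, SE 0.64, adjusted p = 8.97e-07). Of the 21 Toll-like receptor and adaptor genes tested it was the only one higher, and Tlr3 was the only one lower. Among all tested genes 2.4% were called higher and 1.74% lower. Tlr3, which senses double-stranded RNA, had 9.83 to 56.1 CPM in MLC (median 35.5) and 159, 115, 158 and 172 CPM in MG (-2.04, SE 0.39, adjusted p = 0.00799).

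Genes of border macrophages, which line the meninges and vessels of the brain, were higher in MLC as well. Of 20 listed, 14 were tested, 10 were higher and none was lower (median 6.26), and 9 of the 10 held in every fit without a library. Mrc1, the mannose receptor CD206, had 704 to 1190 CPM in MLC (median 820), against 17.8, 18.7, 46.1 and 2.31 CPM in MG (log2 fold change of 5.37, SE 0.67, adjusted p = 0.000233). Cd163, the haemoglobin scavenger receptor, had 1.40 to 17.4 CPM in MLC (median 4.02) and no count in the 4 MG libraries, at least 195-fold higher against a floor of 3 counts over the MG group (adjusted p = 0.0152). Over 27 other fits the call on Cd163 was lost in 4, among them the fit without the 3 libraries of low complexity. Cp, the copper-binding ferroxidase ceruloplasmin, had 315 to 440 CPM in MLC (median 348) and 0.291, 8.57, 0.735 and 1.32 CPM in MG (7.16, SE 0.87, adjusted p = 0.000174). As in any bulk sample, a mixture with another cell type and a level within each cell cannot be told apart. Without MG replicate 3 the log2 fold change of Mrc1 was 6.10, and without MG replicate 2 that of Cp was 8.78.

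Promoters of the called genes were searched for short motifs on both strands, in the 250 bases before the first listed RefSeq start (build GRCm38.p6; 208 of the 291 higher, 145 of the 211 lower and 8633 of all tested genes matched a promoter). GAGGAA, the core bound by PU.1, was in 38.0% of the higher, 30.3% of the lower and 22.9% of all tested promoters. The interferon-stimulated element was in 6.73% of the higher, 4.14% of the lower and 2.94% of all tested promoters. TTGCGCAA, a C/EBP site, was in 1.44% of the higher and 0.313% of all tested promoters and in none (0) of the lower ones. The NF-kB motif was in 22.1% of the higher, 22.1% of the lower and 21.6% of all tested promoters, and CAGACA, a SMAD site, in 11.5%, 11.7% and 13%. TGCTGAC, a MAF motif, was in 2.4% of the higher, 6.9% of the lower and 2.91% of all tested promoters. The MEF2 motif was in none (0) of the called promoters and in 0.116% of all tested ones. These shares were not tested. The promoters of 3 higher genes and of P2ry12 are shown as examples of the motifs and do not stand for the called genes. Ms4a7, Lyz2, Spic, Cd38 and Sall1 had no (0) PU.1, interferon-stimulated, C/EBP or MEF2 match. Capitals mark a match to any of the 7 motifs on either strand. Clec12a (chr6:129349994-129350243, plus strand) has a pair of PU.1 cores, a C/EBP site and a SMAD site, Cybb (chrX:9469325-9469574, minus strand) has 3 interferon-stimulated elements and an NF-kB site, Bst2 (chr8:71537473-71537722, minus strand) has a pair of overlapping interferon-stimulated elements, and P2ry12 (chr3:59262986-59263235, minus strand) has an NF-kB site.
Clec12a: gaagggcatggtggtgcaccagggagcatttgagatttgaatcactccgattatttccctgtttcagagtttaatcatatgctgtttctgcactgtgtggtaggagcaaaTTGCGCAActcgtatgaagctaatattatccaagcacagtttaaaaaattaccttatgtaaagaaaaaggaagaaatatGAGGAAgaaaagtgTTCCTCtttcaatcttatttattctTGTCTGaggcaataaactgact
Cybb: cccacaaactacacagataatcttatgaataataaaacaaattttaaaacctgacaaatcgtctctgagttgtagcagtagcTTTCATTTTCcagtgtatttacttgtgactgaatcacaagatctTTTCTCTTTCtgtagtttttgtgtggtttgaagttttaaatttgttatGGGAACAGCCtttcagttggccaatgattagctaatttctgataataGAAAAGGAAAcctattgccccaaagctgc
Bst2: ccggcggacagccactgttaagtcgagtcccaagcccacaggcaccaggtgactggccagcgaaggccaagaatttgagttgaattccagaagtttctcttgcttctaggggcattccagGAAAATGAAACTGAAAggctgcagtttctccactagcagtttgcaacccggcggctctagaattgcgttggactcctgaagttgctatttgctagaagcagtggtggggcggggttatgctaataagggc
P2ry12: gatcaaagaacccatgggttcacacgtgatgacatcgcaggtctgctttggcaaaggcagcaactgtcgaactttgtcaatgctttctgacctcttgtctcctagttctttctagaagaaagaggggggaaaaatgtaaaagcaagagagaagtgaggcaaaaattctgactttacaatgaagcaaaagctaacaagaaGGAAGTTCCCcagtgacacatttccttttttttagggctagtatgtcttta

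Chemokine ligands split by gene. Of 19 listed, 16 were tested, 6 were higher in MLC (Ccl12, Ccl7, Ccl8, Pf4, Cxcl16 and Cxcl14) and 2 were lower (Ccl6 and Ccl9), and 7 of these 8 calls held in every fit without a library. Ccl12, a ligand of the monocyte receptor Ccr2, had 1918 to 4347 CPM in MLC (median 3388), against 421, 116, 777 and 265 CPM in MG (log2 fold change of 3.04, SE 0.48, adjusted p = 0.00179). Ccl8, which likewise draws monocytes, had 93.3 to 414 CPM in MLC (median 243) and 1.17, 0, 0.343 and 0.36 CPM in MG (9.13, SE 0.79, adjusted p = 7.58e-06). Pf4, platelet factor 4, had 150 to 279 CPM in MLC (median 199) and 1.65, 0.241, 0.318 and 0.15 CPM in MG (8.57, SE 0.73, adjusted p = 6.99e-06). In the other direction, Ccl9 had 4.30 to 13.2 CPM in MLC (median 8.49) and 163, 114, 190 and 234 CPM in MG (-4.40, SE 0.37, adjusted p = 5.94e-06), and Ccl6 had 51.3 to 142 CPM in MLC (median 93.7) and 214, 294, 455 and 630 CPM in MG (-2.04, SE 0.35, adjusted p = 0.00327). Both encode ligands of Ccr1. That receptor was higher in MLC, with 383 to 717 CPM (median 563), against 56.5, 80.0, 131 and 41.1 CPM in MG (2.86, SE 0.36, adjusted p = 0.000246). Without MG replicate 1 the log2 fold changes of Ccl8 and Pf4 were 9.79 and 9.69.

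Integrins and adhesion molecules also went both ways, with 3 higher and 5 lower of 22 tested. Itgal, which encodes CD11a, an LFA-1 chain, had 29.8 to 77.1 CPM in MLC (median 40.9) and 0, 0, 0.0245 and 0.030 CPM in MG (adjusted p = 3.22e-06), a difference for which no fold is given because MG had at most 3 counts in all. Itga4, a chain of the integrin VLA-4, had 70.7 to 136 CPM in MLC (median 112) and 0, 0, 0.196 and 7.80 CPM in MG (5.69, SE 1.25, adjusted p = 0.0183), and 9.85 without MG replicate 4. Over 27 other fits the call on Itga4 was lost in 4. These included the fits with MLC replicates 3 and 6 left out and with their counts summed into the libraries of the same code. Itgb3, the beta chain of the vitronectin receptor, was lower, with 0 to 0.2 CPM in MLC (median 0.117) and 30.7, 33.9, 4.58 and 33.6 CPM in MG (-7.74, SE 1.03, adjusted p = 0.00037). Itgam, the chain known as CD11b, was lower by a smaller step, with 168 to 228 CPM in MLC (median 185) and 428, 459, 397 and 519 CPM in MG (-1.27, SE 0.22, adjusted p = 0.00386). Jam2, a junctional adhesion molecule, had 0.709 to 5.24 CPM in MLC (median 1.22) and 140, 149, 246 and 255 CPM in MG (-6.70, SE 0.59, adjusted p = 8.28e-06), and -7.38 without MLC replicate 4. Selplg, the P-selectin ligand, had 52.8 to 699 CPM in MLC (median 338) and 4751, 5365, 5416 and 1473 CPM in MG (-3.62, SE 0.61, adjusted p = 0.00275).

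Among actin regulators, 2 of 25 tested were higher (Iqgap1 and Iqgap2) and 3 lower (Evl, Fscn1 and Rhob). Iqgap2, a scaffold protein, had 32.0 to 82.4 CPM in MLC (median 56.6) and 0, 0, 0.0245 and 0 CPM in MG (adjusted p = 1.19e-06, no fold given). Its paralog Iqgap1 had 82.6 to 314 CPM in MLC (median 107) and 5.15, 12.4, 3.50 and 5.79 CPM in MG (4.43, SE 0.55, adjusted p = 0.000211). Fscn1, which bundles actin filaments in cell protrusions, had 0 to 0.281 CPM in MLC (median 0.144) and 31.8, 70.1, 38.5 and 26.8 CPM in MG (-8.00, SE 0.80, adjusted p = 2.37e-05). Outside that list, Afdn, the junction protein afadin, had 20.8 to 56.7 CPM in MLC (median 38.1), and in MG 3 libraries had 0 and the other 0.0735 CPM (adjusted p = 2.61e-05, no fold given).

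**Figure D3:**
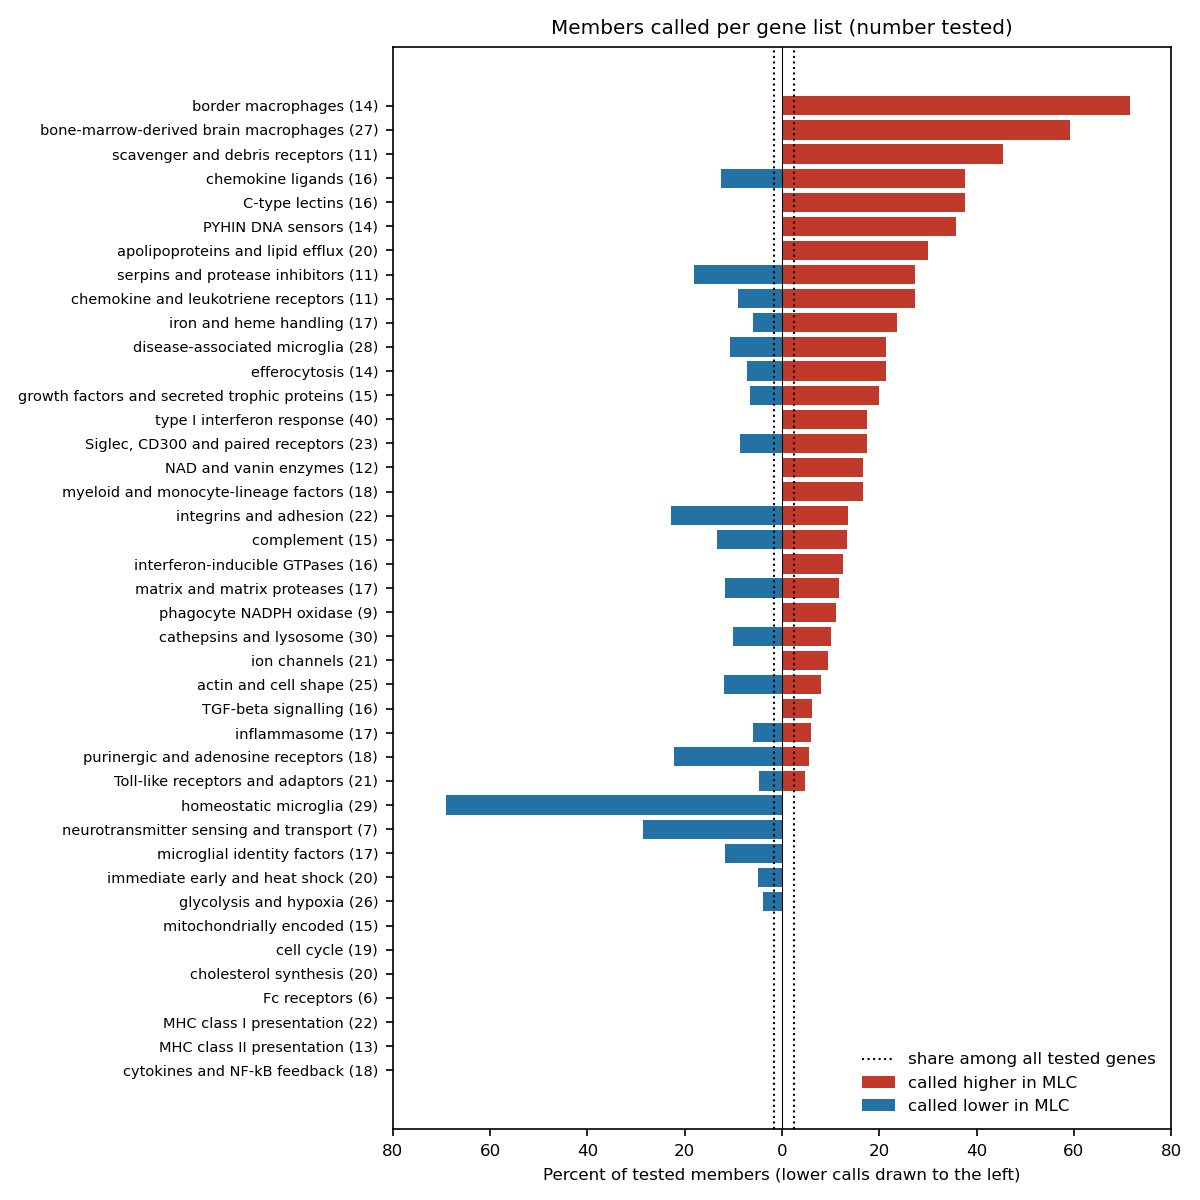
For each gene list, with the number of tested members in brackets, red bars give the percent of members called higher in MLC and blue bars, drawn to the left, the percent called lower; dotted lines mark 2.4% and 1.74%, the shares among all tested genes. Border macrophages (10 of 14), marrow-derived brain macrophages (16 of 27) and scavenger receptors (5 of 11) have the highest shares called higher among the lists drawn, which leave out the sex-linked transcripts and the markers of other cells, and homeostatic microglia (20 of 29) the highest share called lower.

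Genes for taking up and exporting lipid were higher in part. Of 20 apolipoprotein and lipid efflux genes tested, 6 were higher in MLC and none lower, and 2 of the 6, Apoe and Apoc4, held in every fit without a library. Apoe, the main lipid carrier of the brain, had 20560, 42150, 36930, 51840, 6812 and 6567 CPM in MLC replicates 1 to 6, against 225, 329, 450 and 337 CPM in MG (log2 fold change of 6.36, SE 0.72, adjusted p = 9.84e-05). Its lowest MLC library still lay above every MG library. Of 11 scavenger receptor genes tested, 5 were higher, none was lower, and all 5 calls held in every fit that left out 1 library. Over 27 other fits the call on Cd36 was lost in 4. Among them were the fit with MLC replicates 3 and 6 both left out and the fit without the low-count filter. Msr1, scavenger receptor A, had 128 to 347 CPM in MLC (median 239) and 5.83, 2.65, 0.612 and 0.27 CPM in MG (6.76, SE 0.84, adjusted p = 0.000221). Cd36, a receptor for oxidised lipid, had 216 to 614 CPM in MLC (median 505) and 26.3, 0.362, 29.8 and 0.33 CPM in MG (5.07, SE 1.11, adjusted p = 0.0183), so the MG libraries fell into a pair with and a pair nearly without the gene. Without MG replicate 1 the log2 fold change of Msr1 was 7.84, and without MG replicate 3 that of Cd36 was 5.74. Of 20 cholesterol synthesis genes tested, none was called (0) by edgeR, DESeq2 or limma-voom.

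Secreted trophic factors gave 3 higher (Igf1, Gdf3 and Nrp1) and 1 lower (Pros1) of 15 tested. Igf1, insulin-like growth factor 1, had 169 to 1112 CPM in MLC (median 319) and 0.194, 0, 0.612 and 28.0 CPM in MG (5.87, SE 1.42, adjusted p = 0.0317). That call was lost without MLC replicate 4 or 6 (adjusted p = 0.0540 and 0.0538) and without MG replicate 1, 2 or 3 (0.0677, 0.0550 and 0.0792), and without MG replicate 4 the log2 fold change was 10.22. Gdf3, a ligand of the TGF-beta family, had 2.81 to 57.6 CPM in MLC (median 38.3) and 0.0971, 0.121, 0.0490 and 0.12 CPM in MG (8.48, SE 1.04, adjusted p = 0.000187). Pros1, protein S, which bridges dying cells to TAM receptors, was lower, with 190 to 558 CPM in MLC (median 381) and 1436, 1397, 1309 and 1421 CPM in MG (-1.87, SE 0.31, adjusted p = 0.00249). Axl, a TAM receptor outside that list, was higher, with 198 to 385 CPM in MLC (median 263) and 56.5, 1.33, 41.4 and 9.18 CPM in MG (3.34, SE 0.74, adjusted p = 0.0201). The call on Axl was lost without MG replicate 4 (adjusted p = 0.0529), and its log2 fold change was 3.96 without MG replicate 1.

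Disease-associated microglial genes did not move together, with 6 higher, 3 lower and 19 not called of 28 tested (median 0.10). Beside Apoe and Lyz2, Lilrb4a, an inhibitory receptor, was higher, with 436 to 915 CPM in MLC (median 758) and 3.89, 7.84, 18.5 and 6.99 CPM in MG (6.26, SE 0.51, adjusted p = 4.72e-06), and 6.85 without MG replicate 3. Cd9, a tetraspanin, was lower, with 464 to 681 CPM in MLC (median 586) and 1611, 1641, 2667 and 2834 CPM in MG (-1.91, SE 0.27, adjusted p = 0.000511). Cathepsin genes split in the same way. Ctsc had 4381 to 8856 CPM in MLC (median 6760) and 1936, 1591, 2926 and 2100 CPM in MG (1.67, SE 0.29, adjusted p = 0.00381), and Ctse had 22.8 to 48.8 CPM in MLC (median 34.1) and 0, 0, 0.808 and 0.03 CPM in MG (7.05, SE 1.20, adjusted p = 0.00316), and 10.35 without MG replicate 3. Ctsl was lower, with 111 to 174 CPM in MLC (median 147) and 469, 315, 702 and 593 CPM in MG (-1.84, SE 0.27, adjusted p = 0.000814). Ctsd and Ctsb overlapped between the groups (adjusted p = 0.69 and 0.969).

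Of 14 tested PYHIN genes, which encode sensors of DNA in the cytosol and nucleus, 5 were higher in MLC, none was lower and 4 of the 5 held in every fit without a library. Ifi203 had 194 to 401 CPM in MLC (median 315) and 0.194, 0, 0.588 and 0.39 CPM in MG (9.72, SE 0.64, adjusted p = 8.12e-07). Mndal had 156 to 361 CPM in MLC (median 226) and 0.194, 0.121, 0.465 and 0.33 CPM in MG (9.51, SE 0.51, adjusted p = 1.85e-07). Ifi207 had 297 to 366 CPM in MLC (median 338) and 31.1, 1.33, 4.04 and 5.16 CPM in MG (5.02, SE 0.76, adjusted p = 0.00114), and 6.54 without MG replicate 1. These genes lie in a cluster of close copies, so the division of reads among them is uncertain.

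The wider type I interferon response leaned the same way, with 36 of 40 tested genes positive (median 1.49), of which 7 were called higher and none lower. Only 3 of the 7, Bst2, Ifi44 and Rtp4, held in every fit without a library. Bst2, tetherin, which holds budding viruses at the cell surface, had 406 to 631 CPM in MLC (median 528) and 126, 93.6, 210 and 188 CPM in MG (1.74, SE 0.29, adjusted p = 0.00274). Ifi44 had 8.66 to 33.3 CPM in MLC (median 23.6) and 0, 0, 0.147 and 0.15 CPM in MG (7.87, SE 1.11, adjusted p = 0.000593). Ifit3, which binds viral RNA complexes, had 210 to 317 CPM in MLC (median 284) and 146, 34.3, 69.8 and 28.0 CPM in MG (1.97, SE 0.44, adjusted p = 0.0198), and its call was lost without MG replicate 2 (adjusted p = 0.0661) or 3 (0.0605), while its log2 fold change was 2.61 without MG replicate 1. Of the 30 tested interferon genes with a promoter in the table, 43.3% held the interferon-stimulated element.

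MHC class II genes gave large differences whose calls varied with the fit. Of 13 tested genes 9 were positive (median 1.12). With edgeR none was called (0), while DESeq2 called 6 higher, and limma-voom called 6 higher and 2 lower. H2-Ab1, a class II beta chain, had 11840, 10670, 24660, 16240, 1813 and 13110 CPM in MLC replicates 1 to 6 and 1189, 55.7, 2470 and 61.0 CPM in MG (3.79, SE 1.04, adjusted p = 0.0608). Cd74, the invariant chain, had 11320 to 55330 CPM in MLC (median 36900) and 4500, 178, 9021 and 241 CPM in MG (3.30, SE 0.96, adjusted p = 0.0782). MG replicates 1 and 3, which have F in their library names, had the higher levels of both genes, and replicates 2 and 4, which have M, the lower ones. Over 27 other fits, H2-Ab1 had adjusted p from 0.00109 to 0.382 and was called in 11, and Cd74 had adjusted p from 0.00127 to 0.377 and was called in 6. Without MG replicate 3 both were called (adjusted p = 0.0401 and 0.0432), and H2-Ab1 also without MLC replicate 5 (0.0373). B-cell markers summed to 239 to 661 CPM in MLC and 583 to 1490 CPM in MG, most of it Ighm, with Cd79a and Pax5 at 0 in all 10 libraries. Of 22 class I genes, 18 cytokine and NF-kB feedback genes and 19 cell cycle genes tested, none was called (0) with edgeR. In the same order DESeq2 called 1, 2 and 5, and limma-voom 3, 3 and 1. Il1b had 0.0857 to 20.1 CPM in MLC (median 11.5) and 5.05, 0, 0 and 12.8 CPM in MG (adjusted p = 0.797), and Tnf had 0.0286 to 21.2 CPM in MLC (median 6.07) and 6.22, 0, 1.03 and 0.24 CPM in MG (adjusted p = 0.687), so each varied as much within a group as between the groups.

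**Figure D4:**
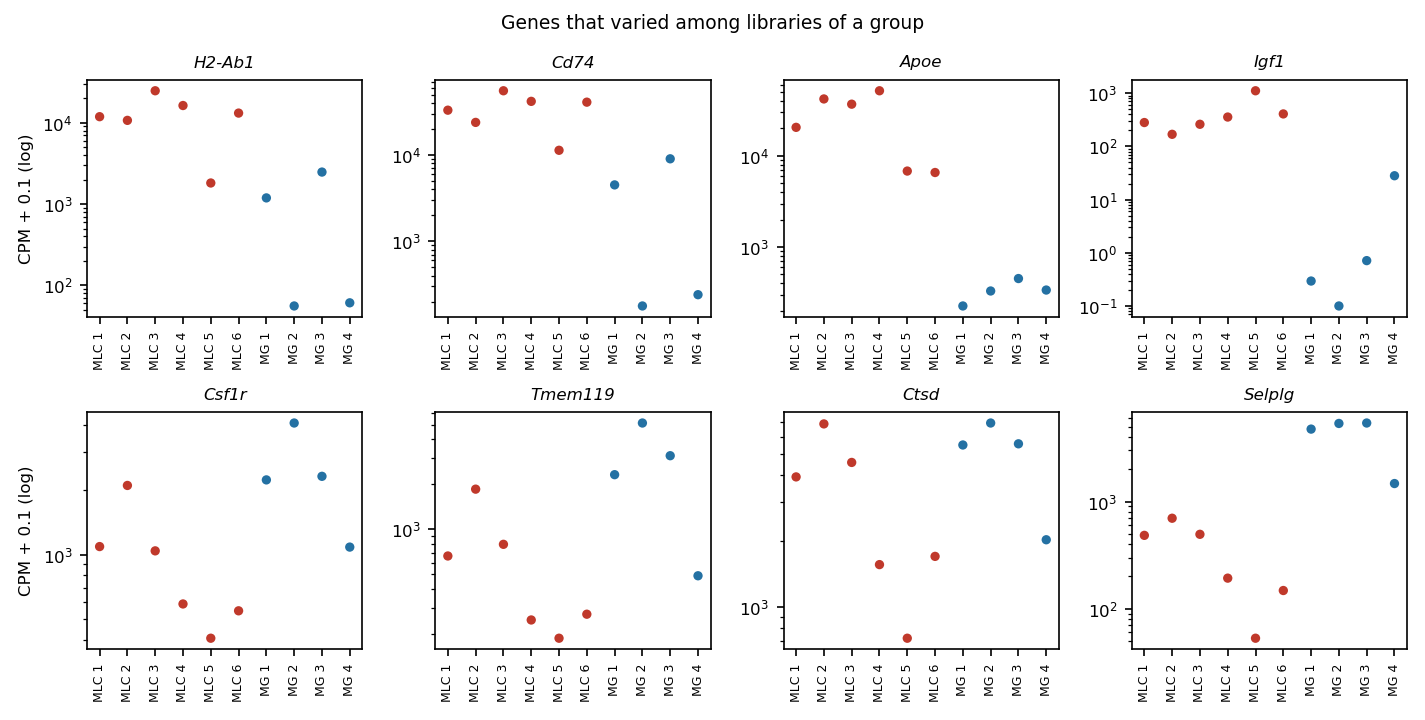
CPM plus 0.1 on a log axis in each of the 6 MLC (red) and 4 MG (blue) libraries for 8 genes with a wide spread. H2-Ab1 and Cd74 are high in MG replicates 1 and 3 and low in 2 and 4, and Csf1r, Tmem119, Ctsd and Selplg are higher in MLC replicates 1 to 3 than in 4 to 6.

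Some genes split the MLC libraries by the number in their names. Ctsd, a lysosomal protease, had 3922, 6851 and 4567 CPM in MLC replicates 1 to 3 and 1558, 718 and 1699 CPM in replicates 4 to 6, without overlap. Csf1r, Tmem119, Selplg and Golm1 were likewise higher in each of replicates 1 to 3 than in any of 4 to 6. So was Cd38. Ms4a7, Gpr65, Pf4 and Ccl12 went the other way, each lower in every one of replicates 1 to 3 than in any of 4 to 6. For Ms4a7 the levels were 2262, 1773 and 2864 CPM in replicates 1 to 3 and 3432, 4967 and 3416 CPM in 4 to 6. P2ry12, Clec12a and Mrc1 overlapped between these sets of replicates. The share of all genes that split in this way was not counted. The share of mitochondrial counts was 0.886%, 0.661% and 1.05% in replicates 1 to 3 and 1.55%, 2.51% and 1.89% in 4 to 6. The slope of log2 level on gene GC content was lowest in MLC replicate 5, at -1.05 per 10 percentage points, against -0.264 to 0.342 in the other MLC libraries and -0.245 to 0.745 in MG. With the GC trend of each library removed 499 genes were called, 266 higher and 233 lower.

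Signalling receptors and metabolic enzymes gave further single-gene contrasts. Gpr65, a proton-sensing receptor, had 665 to 1075 CPM in MLC (median 887) and 46.8, 15.7, 53.0 and 33.7 CPM in MG (4.56, SE 0.40, adjusted p = 8.28e-06). Adora3, an adenosine receptor, had 0.456 to 20.7 CPM in MLC (median 6.02) and 361, 271, 498 and 353 CPM in MG (-5.35, SE 0.79, adjusted p = 0.00092), and P2ry13, another ADP receptor, was lower by 1.58 on the log2 scale (log2 fold change of -1.58, SE 0.30, adjusted p = 0.00799). Slc1a3, the glutamate transporter GLAST, had 2.27 to 19 CPM in MLC (median 12.3) and 506, 342, 525 and 296 CPM in MG (-5.16, SE 0.48, adjusted p = 1.25e-05). The summed level of 10 astrocyte markers was 2.39 to 66.7 CPM in MLC and 0.122 to 12.55 CPM in MG, and the part of astrocyte RNA in the level of Slc1a3 was not tested. Pdk1, a kinase that restrains pyruvate dehydrogenase, had 6.6 to 28.5 CPM in MLC (median 10.5) and 58.4, 52.1, 69.6 and 113 CPM in MG (-2.50, SE 0.49, adjusted p = 0.00925). It was the only call among 26 tested genes of glycolysis and hypoxia, where 4.13% of all tested genes were called.

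Complement and inflammasome genes gave few calls, in both directions. Among all tested genes 2.4% were called higher and 1.74% lower. Of 15 complement genes tested 2 were higher and 2 lower, and only the 2 lower calls held in every fit that left out 1 library. Nlrc4, an inflammasome scaffold that responds to bacterial flagellin, had 19.6 to 334 CPM in MLC (median 64.8) and 0.0971, 0.121, 0.0490 and 0.03 CPM in MG (10.75, SE 1.07, adjusted p = 2.43e-05), and 9.99 without MLC replicate 5. Pycard, the adaptor ASC, was lower, with 248 to 382 CPM in MLC (median 287) and 623, 518, 802 and 872 CPM in MG (-1.25, SE 0.25, adjusted p = 0.0101). Over 27 other fits the call on Pycard was lost in 6. These included the fits without MLC replicates 3 and 6 and without the 3 libraries of low complexity. No other gene of the 17 tested in that list was called.

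The largest changes among well-expressed genes (average log2 CPM no lower than 4) without overlap included several outside the families above. Vnn3, a vanin, had 29.8 to 96.3 CPM in MLC (median 67.8) and 0.0971, 0.121, 0.0245 and 0.03 CPM in MG (10.18, SE 0.77, adjusted p = 1.9e-06). Thbd, the anticoagulant receptor thrombomodulin, had 9.94 to 111 CPM in MLC (median 48.6), and in MG 0.0971 CPM in replicate 1 and 0 in the others (adjusted p = 3.45e-05, no fold given). Among lower genes, Hspb3, a small heat shock protein, had 0.142 to 0.421 CPM in MLC (median 0.198) and 33.2, 36.2, 58.6 and 94.3 CPM in MG (-7.89, SE 0.66, adjusted p = 4.99e-06). Klk8, a serine protease also named neuropsin, had 0.142 to 0.429 CPM in MLC (median 0.281) and 47.7, 45.5, 39.7 and 36.6 CPM in MG (-7.22, SE 0.66, adjusted p = 9.11e-06). Eva1a and Tmem204 had log2 fold changes of -7.57 and -7.62 (adjusted p = 8.28e-06 and 7.58e-06).

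Sex-linked transcripts differed with cell type. Xist, the RNA that silences an X chromosome in female cells, had 1.13 to 8.27 CPM in MLC (median 1.92), in libraries with F and with M in their names alike, and 286, 218, 389 and 176 CPM in MG (-6.52, SE 0.59, adjusted p = 9.57e-06). Ddx3y, on the Y chromosome, had 245 to 1041 CPM in MLC (median 380) and 38.3, 46.9, 4.46 and 102 CPM in MG (3.29, SE 0.70, adjusted p = 0.0148, lost without MG replicate 1 or 2 at 0.0558 and 0.0528). Every MG library thus held both Xist and Ddx3y, and whether male and female cells were mixed in them was not tested. Without MLC replicate 6 the log2 fold change of Xist was -7.27, and without MG replicate 4 that of Ddx3y was 3.98. The sex of the cells and their origin therefore cannot be told apart. Of the called genes with a known chromosome, 264 of 280 higher and 202 of 208 lower genes were autosomal. The share over all tested genes was not counted, and these counts do not separate sex from origin.

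Marker lists of other cells differed in level. B-cell markers had the highest sums in MG, given above with Ighm, which averaged 432 CPM in MLC and 886 CPM in MG (adjusted p = 0.13). Red cell and choroid plexus markers summed to 48.0 to 1132 CPM in MLC and 165 to 308 CPM in MG, and those of oligodendrocytes and their precursors to 48.9 to 112 CPM in MLC and 73.5 to 168 CPM in MG. Endothelial and mural markers summed to 1.23 to 7.11 CPM in MLC and 4.11 to 57.6 CPM in MG, and 1 of them, Pecam1, was called lower (-5.50, SE 1.07, adjusted p = 0.00828). The 12 markers of blood monocytes and dendritic cells summed to 14.7 to 30.3 CPM in MLC and 1.05 to 56.9 CPM in MG, with none called (0) of 3 tested. Neutrophil markers summed to 3.83 to 19.2 CPM in MLC and 3.51 to 9.53 CPM in MG. T and NK cell markers summed to 0 to 6.24 CPM in MLC and to 0 in every MG library, with 7 of 10 at 0 throughout. Neuronal markers summed to 3.65 to 163 CPM in MLC, the highest in replicate 6, and to 3.84 to 15.8 CPM in MG. Their part in the results was not tested.

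The same comparison was made after saline in 6 other libraries, 3 MLC and 3 MG, where 872 of 15509 tested genes were called. Of the 291 genes higher after seizure, 290 had the same sign after saline and 214 were called in the same direction. Of the 211 lower genes, 210 were tested after saline, all 210 had the same sign and 149 were called in the same direction. None was called in the opposite direction. The sizes were less alike than the signs. Among the higher genes, 225 of 291 had the larger change after seizure, with medians of 6.61 after seizure and 3.41 after saline, and among the lower genes 124 of 210, with medians of -2.54 and -2.26. Over genes with more than 3 counts in each of the 4 groups the medians were 4.10 and 3.05 for 203 higher genes and -2.34 and -2.06 for 191 lower ones. The genes were chosen by their values after seizure, so these sizes are a description. P2ry12 had log2 fold changes of -2.68 after seizure and -2.69 after saline (adjusted p = 1.1e-05 and 0.000832), and Clec12a 10.07 and 9.35 (adjusted p = 5.91e-08 and 2.25e-05).

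**Figure D5:**
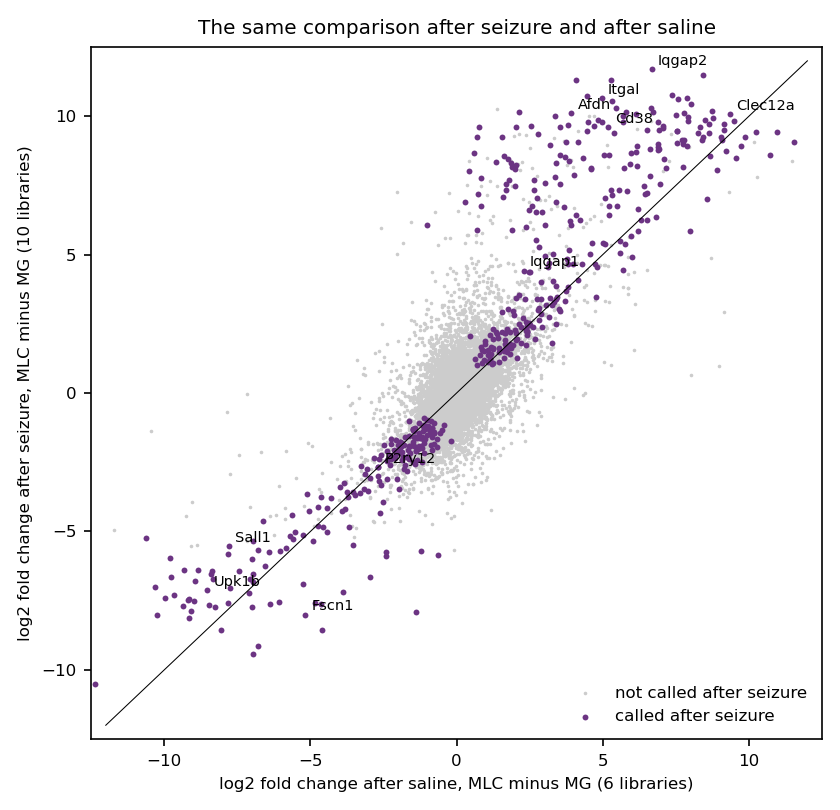
Each point is a gene tested in both fits, with its log2 fold change, MLC minus MG, after saline (6 libraries) on the x axis and after seizure (10 libraries) on the y axis; purple points were called after seizure and the line marks equal values. Of the called genes 290 of 291 higher and 210 of 210 lower ones lie on the same side of 0 after saline.

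The difference between the differences, seizure minus saline, was tested in a fit of all 21 libraries. It gave no call among 18867 genes (0) with edgeR's quasi-likelihood test, with 1036 genes at an unadjusted p under 0.05 and 0.279 as the smallest adjusted p. DESeq2 gave 138 calls and limma-voom 8, of which 3 were shared. The smallest p was that of Cd38, an enzyme that consumes NAD, which had 60.9 to 114 CPM in MLC after seizure (median 91.1) and 0.0971, 0, 0.171 and 0.090 CPM in MG. Its log2 fold change was 9.59 after seizure and 5.19 after saline, each called in its own fit (adjusted p = 6.86e-07 and 0.000601), with a difference of 4.34 (adjusted p = 0.279 over all genes). Treatment and labelled batch cannot be told apart in this difference.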

How the data were processed

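RNA from sorted brain cells was sequenced after low-input library preparation with PCR, per the labels' protocols. The authors deposited a table of estimated counts, partly fractional, which were rounded here to whole counts. The submitters' processing notes name Trim Galore 0.6.7, STAR 2.7.10a, featureCounts and GRCm39. No source used here says which tool left the counts fractional. No molecular identifiers are named, so floors of 3 counts cover counting error only. Whether strand was used in counting is unstated.

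Genes were filtered by group with edgeR 4.0.16 (R 4.3.3), scaled by TMM and tested with the robust quasi-likelihood fit in the 10 libraries alone. Benjamini-Hochberg adjustment ran over all 12149 genes, with a limit of 0.05 and no fold minimum. The SE is the absolute log2 fold change over the square root of F. CPM are TMM-scaled. No fold is given where a group had 1 to 3 counts. Alternatives used DESeq2 1.42.0, limma 3.58.1 and other library sets. On data simulated for this comparison (12149 genes, 200 changed), the shares of true changes that edgeR called were 1.49% at 2-fold, 28.4% at 4-fold and 77.3% at 8-fold, and 2 of its 73 calls were false.

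Members, lists and naming rules were chosen with earlier results of these data known. Genes named were among the 12 largest called changes per direction without overlap, the most abundant called genes, list members, or those with the smallest p in the seizure minus saline test. Some genes that these rules name are not reported here. Correlations did not settle whether replicate numbers pair the samples, and the main fit used no pairing. Promoters came from RefSeq (GRCm38.p6).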

Additional observations from a re-analysis of the deposited data

Results flagged for a closer look

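In each group the highest or lowest library was set against its neighbour by Dixon's criterion. Values were log2(CPM + 1) for the 92 genes and untransformed for 4 library measures, such as the total count. Of 192 groups of values examined, 19 had a library that stood apart. For independent normal values chance gives about 1 in 20. That rate does not apply here, because the genes share libraries and a group with all but 1 library at 0 is always flagged. Ahr, Iqgap2, Afdn and Thbd in MG are such groups, so the 19 are a description.

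In MLC, replicate 5 was lowest for Trem2 (615.7 CPM), Gdf3 (2.809 CPM), Tlr3 (9.831 CPM) and H2-Ab1 (1813 CPM). It also had the lowest slope on GC content (-1.05) and the highest mitochondrial share (2.51%), and their part in these values was not tested. MLC replicate 3 was lowest for Thbd (9.942 CPM) and Il1b (0.08571 CPM) and had the highest total count (37494192). MLC replicate 2 was lowest for Cd36 (216.4 CPM, next 416.6 CPM).

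In MG, replicate 3 was lowest for Sall3 (2.669 CPM, next 70.94 CPM) and for Itgb3 (4.578 CPM, next 30.7 CPM), and highest for Ctse (0.808 CPM). MG replicate 4 was highest for Igf1 (27.99 CPM), for Itga4 (7.801 CPM) and for Ahr (0.15 CPM, the other MG libraries at 0), and lowest for Selplg (1473 CPM). MG replicate 1 was highest for Pf4 (1.651 CPM). Iqgap2 (0.02448 CPM) and Afdn (0.07345 CPM) in MG replicate 3 and Thbd (0.09714 CPM) in MG replicate 1 rest on 1 to 3 counts, with the other MG libraries at 0.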

How the results depend on the processing

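Against 502 calls (291 higher in MLC and 211 lower), DESeq2 gave 1477 (929 and 548), limma-voom 998 (497 and 501), all 21 libraries in the fit 1109 (474 and 635) and a minimum change of 2-fold 284 (173 and 111). In the simulated comparison, where no gene of low level was changed, DESeq2 had 59 false calls of 163 and limma-voom 3 of 59. Libraries with number 1 in their names gave 286 (178 and 108), those with number 2 gave 92 (66 and 26), and leaving out MLC replicates 3 and 6 gave 292 (161 and 131), in each case with fewer libraries. The share of higher calls was 58% in the fit reported, 47.1% with the 13 seizure libraries (250 higher, 281 lower) and 42.7% with all 21. The cause was not tested. RLE scaling (493), no low-count filter (472), counts thinned to the smallest total (477), 3 libraries of low complexity left out (419), the pairs summed (361) and the GC offset (499, chosen after seeing the data) stayed within 1.5 times the count. The replicate number as a block gave 396 calls, 216 higher and 180 lower. Deviations of MLC and MG libraries with the same number correlated with r of 0.0343 to 0.19, and those with different numbers with r of -0.191 to 0.198. Libraries that share a code in their names, such as F1 or M2, had r of -0.0325 to 0.198. These values do not settle whether the labels pair the samples. With the code in the names as a block there were 695 calls, of which 332 were lower. Leaving out each library in turn gave 340 to 536 calls, 191 to 289 of them higher and 149 to 247 lower. The seizure minus saline difference had 0 calls in every edgeR fit, 138 with DESeq2 and 8 with limma-voom. Over the 92 named genes, 98 of the values in other fits lost a call, 40 gained one and 2344 kept theirs, and none changed sign (0) while called. Depth limits genes at a few counts in MG, and no fold is given for those with 1 to 3.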

Other observations

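Some other lists were mostly positive in MLC, and those given here had between 0 and 6 members called higher. Others were not, such as purinergic and adenosine receptors (8 positive, 10 negative), ion channels (9 and 12) and efferocytosis genes (6 and 8). The 15 mitochondrially encoded genes all had a positive log2 fold change (median 1.05) and none was called (0) with edgeR, against 2 with DESeq2 and 3 with limma-voom, with summed levels of 6211 to 28266 CPM in MLC and 4433 to 10577 CPM in MG. Of 16 interferon-inducible GTPase genes tested 14 were positive (median 1.59), and Gbp8 and Gvin1 were called higher. Of 16 C-type lectin genes tested 15 were positive (median 4.31) and 6 were called higher, and 5 of these calls held in every fit that left out a library. Iron and heme genes were less one-sided, with 10 positive and 7 negative of 17 tested (median 0.52). Of these, 4 were called higher and 1, the transferrin receptor Tfrc, was called lower. Of the 5 calls, 3 held in every fit that left out a library.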
